A study of Homo sapiens with 6 samples.

Results

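The genes described here encode the proteasome, the large protease that degrades ubiquitin-tagged proteins, together with the factors that assemble and regulate it. They were chosen by symbol, as the PSMA, PSMB, PSMC, PSMD, PSME, PSMF and PSMG genes with a number and POMP, and they made up 49 of the 53826 entries of the deposited tables. Of these, 44 were treated as constitutive and 5 as immunoproteasome genes (PSMB8, PSMB9, PSMB10, PSME1 and PSME2). With a filter of more than 2 TPM (a measure of the share of all transcripts that a gene takes, corrected for transcript length) in at least 1 of 6 libraries, 47 of the 49 were analysed, among 13181 genes in all. The other 2, PSMA8, the alpha subunit of the testis, and PSMB11, the catalytic subunit of the thymus, were at the floor of 1 TPM in every library. The 47 held 42 constitutive and all 5 immunoproteasome genes.

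The study asked how the overexpression of TIPARP, a mono-ADP-ribosyltransferase induced by dioxin, changes gene expression in A549 cells, a human lung adenocarcinoma line. A549-TIPARP cells carried the TIPARP coding region in the retroviral vector pMXs, in which the viral long terminal repeat drives the insert, and A549-GFP cells carried GFP in the same vector. Both were stable lines of the same parental cells and both had been through retroviral transduction. RNA-seq was carried out on 3 libraries of each line. Whether a line was 1 clone or a pool, and whether the 3 libraries came from separate cultures, was not given in the sources used here, so the p-values measure only the spread between these libraries, which may be technical.

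The proteasome consists of a barrel-shaped core particle and caps that open it. The core is built from rings of alpha subunits (PSMA genes), which form the gate, and rings of beta subunits (PSMB genes), of which PSMB5, PSMB6 and PSMB7 carry the protease sites. The regulatory cap binds ubiquitin chains and holds a ring of ATPases (PSMC genes), which unfold the substrate, and non-ATPase subunits (PSMD genes). In cells exposed to interferon-gamma, PSMB8, PSMB9 and PSMB10 take the places of PSMB5, PSMB6 and PSMB7, and the product serves the making of peptides for MHC class I. Constitutive genes are known to be induced together by the transcription factor NFE2L1 when proteasome activity is short.

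The labels held in the values. TIPARP was at 6.79, 11.4 and 3.68 TPM in A549-GFP libraries 1, 2 and 3 and at 131, 90.5 and 123 TPM in A549-TIPARP libraries 1, 2 and 3, and rose by 3.90 on the log2(TPM + 1) scale (limma adjusted p = 0.0125). With any 1 library other than A549-GFP replicate 2 left out, no gene was called higher, TIPARP included, and the same held with no filter and with the replicate block. Transgene and endogenous transcripts could not be told apart. All 8 epithelial markers were detected, among them EPCAM, KRT7, KRT8 and KRT18, while 7 of 8 endothelial markers (all but EGFL7), 5 of 8 stromal markers and 3 of 8 leukocyte markers were at the floor in every library. The libraries were not alike. In A549-GFP replicate 2 the median gene stood 0.23 above the mean of its line on the log2 scale, and in A549-GFP replicate 3 it stood 0.20 below it, while the medians of the 3 A549-TIPARP libraries lay between -0.03 and 0.03. The summed epithelial markers reached 10783 TPM in A549-GFP replicate 2 and between 18565 and 23396 TPM in the other 5 libraries. The low sum came from KRT8 and KRT18, at 3855 and 4176 TPM, while KRT7, at 2433 TPM, and CDH1, at 142 TPM, were at their highest of the 6 libraries there. Of the 8, KRT19 was at 4.57, 2.54 and 5.36 TPM in A549-GFP and at 19.2, 18.98 and 10.9 TPM in A549-TIPARP, and MUC1 at 3.25, 4.77 and 3.03 TPM and at 9.15, 5.19 and 16.5 TPM, both without overlap between the lines (limma adjusted p = 0.283 and 0.966). Of all genes, 5.36% lay higher in A549-TIPARP without overlap. The other epithelial markers overlapped, with differences of -0.29 (EPCAM), -0.03 (KRT7), 0.03 (CDH1), 0.28 (KRT8), 0.34 (KRT18) and 0.55 (CLDN4). Stromal markers summed to 14.5 to 35.8 TPM in A549-GFP and 20.1 to 41.3 TPM in A549-TIPARP, and leukocyte markers to 32.9 to 81.8 and 32.9 to 48.5 TPM. The part of these library differences in the results below was not tested. Leaving out 1 library at a time changed the sign of the difference between the lines for 28 of the 47 genes, and changed the sign or moved the difference by over 1.5 times for 44 (all but PSMB8, PSMB9 and PSMD7), so single differences below are given as values of these 6 libraries. TPM keeps no record of the number of reads, so depth is unknown, and fewer cells of a kind and less RNA per cell cannot be told apart.

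The promoters of 4 genes are shown before the values, to let the differences between members be read beside the sequence. PSMB5 and PSMB9 stand for the constitutive and the interferon-inducible catalytic subunits. PSMA6 and PSMC4 are shown because their libraries did not overlap between the lines. The sequences come from RefSeq (GRCh38.p14, the hg38 build named for the files), run 5′ to 3′ on the strand of the gene and end at its start or before its annotated exon. Capitals mark matches on either strand to 4 motifs. These are TGANNNNGC, the core of the antioxidant response element bound by NFE2L1 and NFE2L2 with small MAF proteins, GAAANNGAA, from the interferon-stimulated response element, TTCNNNGAA, the gamma-activated site bound by STAT proteins, and the CCAAT box. The PSMB9 stretch (chr6:32853942-32854147, plus strand) lies between PSMB9 and TAP1, which is read from the other strand, and holds a CCAAT box and 1 antioxidant core. The PSMB5 stretch (chr14:23035231-23035470, minus strand) holds a CCAAT box and 2 antioxidant cores. In the PSMC4 stretch (chr19:39970915-39971164, plus strand) an antioxidant core stands alone upstream, and a gamma-activated site and another antioxidant core follow each other directly in 1 run of capitals. The PSMA6 stretch (chr14:35292067-35292316, plus strand), which lies inside the annotated span of the gene and before the start of its RefSeq promoter entry, holds 1 antioxidant core.
PSMB9: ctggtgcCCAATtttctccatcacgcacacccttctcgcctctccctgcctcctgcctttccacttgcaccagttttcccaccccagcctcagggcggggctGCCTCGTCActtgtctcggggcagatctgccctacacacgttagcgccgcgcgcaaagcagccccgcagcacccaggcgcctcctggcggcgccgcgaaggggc
PSMB5: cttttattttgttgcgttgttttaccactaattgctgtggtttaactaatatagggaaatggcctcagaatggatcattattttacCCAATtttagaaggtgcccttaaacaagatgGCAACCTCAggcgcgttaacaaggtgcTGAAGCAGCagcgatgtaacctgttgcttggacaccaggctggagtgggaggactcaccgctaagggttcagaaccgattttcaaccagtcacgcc
PSMC4: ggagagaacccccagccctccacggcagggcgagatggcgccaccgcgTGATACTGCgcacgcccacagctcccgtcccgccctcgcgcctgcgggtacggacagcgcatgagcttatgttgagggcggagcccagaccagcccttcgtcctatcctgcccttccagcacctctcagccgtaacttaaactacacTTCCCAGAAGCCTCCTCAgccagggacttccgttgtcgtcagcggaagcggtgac
PSMA6: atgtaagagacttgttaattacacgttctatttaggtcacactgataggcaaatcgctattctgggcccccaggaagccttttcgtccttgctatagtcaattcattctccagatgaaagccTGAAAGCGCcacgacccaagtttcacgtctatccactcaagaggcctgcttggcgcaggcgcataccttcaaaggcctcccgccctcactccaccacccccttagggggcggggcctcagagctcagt

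Promoters of 250 bases before the start were given for 43 of the 49 genes, and not for PSMA7, PSMB1, PSMB6, PSMB7, PSMD4 and PSMG3. The antioxidant core was in 53.5% of the 43 and in 35.4% of all 27305 promoters of the same length. GAAANNGAA was in 14% against 7.06%, in POMP, PSMA4, PSMB4, PSMB10, PSME2 and PSMG4. TTCNNNGAA was in 11.6% against 6.78%, and CCAAT in 41.9% against 33.0%. In the 10368 promoters of analysed genes the shares were 35.9% for the antioxidant core, 5.48% for GAAANNGAA, 5.43% for TTCNNNGAA and 35.1% for CCAAT. The 43 include PSMA8 and PSMB11, which were at the floor in every library and both hold the antioxidant core. Of the 5 immunoproteasome promoters, 4 held the antioxidant core and 2 held GAAANNGAA. A match describes letters in this window and is not a binding site.

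Proteasome transcripts were abundant in both lines. The 42 analysed constitutive genes made up 0.831%, 0.670% and 0.833% of TPM in the 3 A549-GFP libraries and 0.777%, 0.833% and 0.601% in the 3 A549-TIPARP libraries. The spread within each line was wider than the difference between the lines, at 7771 ± 936 TPM (SD, n = 3) in A549-GFP and 7358 ± 1209 TPM (SD, n = 3) in A549-TIPARP. The 5 immunoproteasome genes summed to 323, 359.5 and 382.6 TPM in A549-GFP and to 415.3, 413.6 and 348.8 TPM in A549-TIPARP, so these sums overlapped too. Among constitutive genes the geometric mean in A549-GFP ran from 22.6 TPM for the assembly factor PSMG4 to 550 TPM for the alpha subunit PSMA7, a 24.4-fold range, and within the alpha ring alone it ran from 57.7 TPM for PSMA5 to that of PSMA7.

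**Figure D1:**
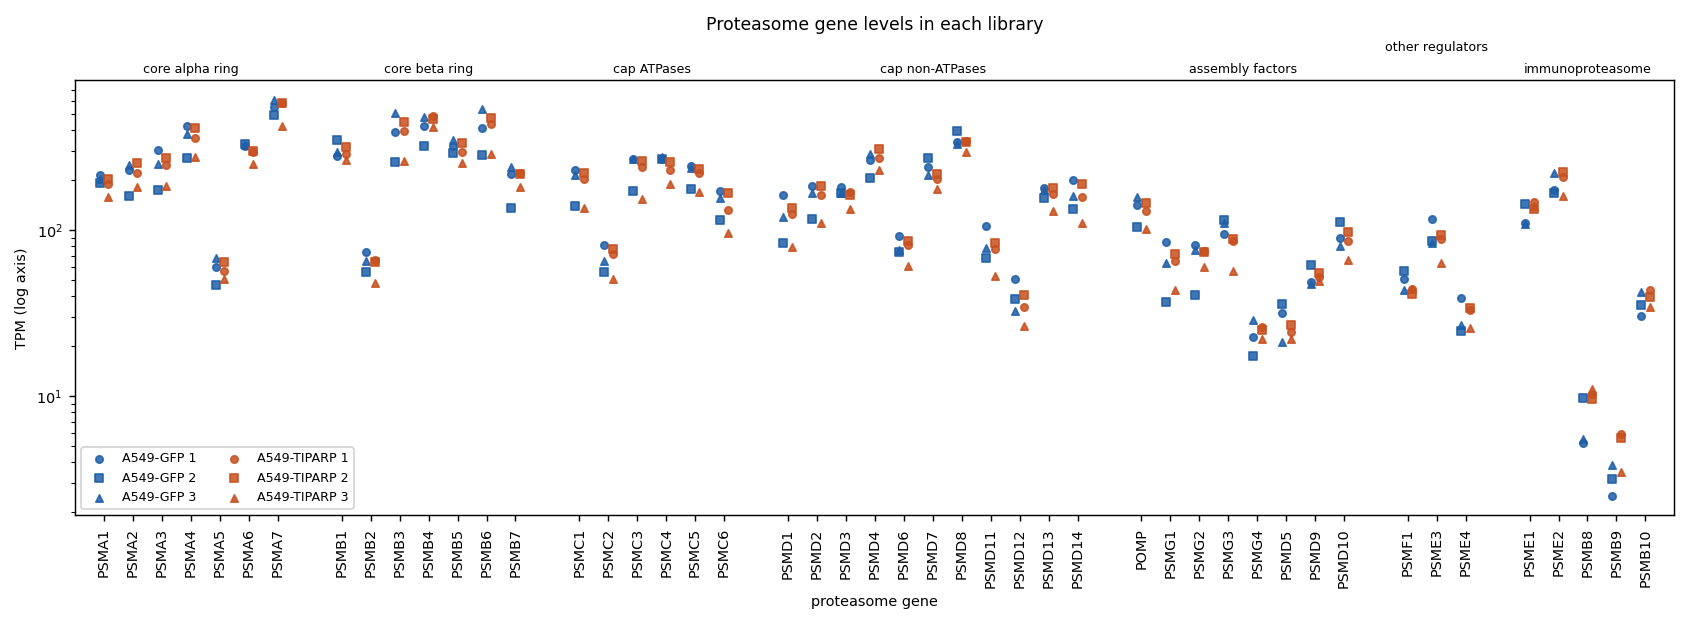
TPM of the 47 analysed proteasome genes (log axis) in each of the 3 A549-GFP libraries (blue) and the 3 A549-TIPARP libraries (orange), with marker shape giving the replicate number and genes grouped by role (core rings, cap, assembly factors, regulators, immunoproteasome). PSMB8 and PSMB9 lie near the bottom of the axis, and A549-GFP replicate 2 and A549-TIPARP replicate 3 are the low points of most constitutive genes.

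No proteasome gene passed the test. With limma on log2(TPM + 1) and Benjamini-Hochberg adjustment over all 13181 genes, 0 of 47 had an adjusted p under 0.05 and the lowest adjusted p among them was 0.994, while 0.0152% of all genes were called. At an unadjusted p under 0.05 there was 1 lower gene of 47, PSMG3, where 0.88% of all genes were lower in A549-TIPARP at that level, and 0 higher genes, against 2.97% of all genes. The precision of the comparison was given by the 95% intervals, which held 0 for 46 of 47 genes and lay within 1 log2 unit of 0 on both sides for 45. The 2 exceptions were PSMB8 and PSMB9, whose intervals reached above 1. The difference between the line means was under 0.2 in size for 35 of the 47. All 3 A549-TIPARP libraries lay below all 3 A549-GFP libraries for 3 of 47 genes (PSMA6, PSMC4 and PSMG3), with 3.54% of all genes in that position, and above them for none, with 5.36% of all genes. For a single gene an exact permutation test of 3 against 3 cannot go below p = 0.1 (two-sided).

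With all 6 libraries, most constitutive genes averaged lower in A549-TIPARP and all 5 immunoproteasome genes averaged higher. Of the 42 constitutive genes 34 lay lower and 8 lay higher, with a median difference of -0.09 on the log2(TPM + 1) scale. All 13181 genes had a median of -0.06, and 60.4% of them had a lower mean. The immunoproteasome genes had a median of 0.21. The direction of the constitutive median depended on the libraries. Without A549-TIPARP replicate 3 it was 0.06, with 27 of 42 genes higher, without A549-GFP replicate 1 the split was 22 lower and 20 higher, with a median of -0.03, and with the libraries rescaled by their median ratios the split of 34 lower and 8 higher became 26 and 16, with a median of -0.03. Without A549-GFP replicate 2 it was -0.20, with 39 of 42 lower, while the median of all genes was then 0.04. Without A549-GFP replicate 3 it was -0.07, with 26 of 42 lower, while the median of all genes was -0.16. All genes had a median of -0.06 without A549-GFP replicate 1, -0.04 without A549-TIPARP replicate 3 and -0.01 with rescaling. Leaving out both A549-GFP replicate 2 and A549-TIPARP replicate 3 was an alternative chosen after the data were seen. The constitutive median was then -0.07 with 32 of 42 lower, that of all genes 0.06 and the immunoproteasome median 0.35. The immunoproteasome median ran from 0.15 to 0.34 over the fits that leave out 1 library each, with 4 of 5 genes higher in the fits without A549-GFP replicate 2 and without A549-TIPARP replicate 2 and all 5 in the others. The difference between both groups of genes was not tested, since genes are not replicates.

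**Figure D2:**
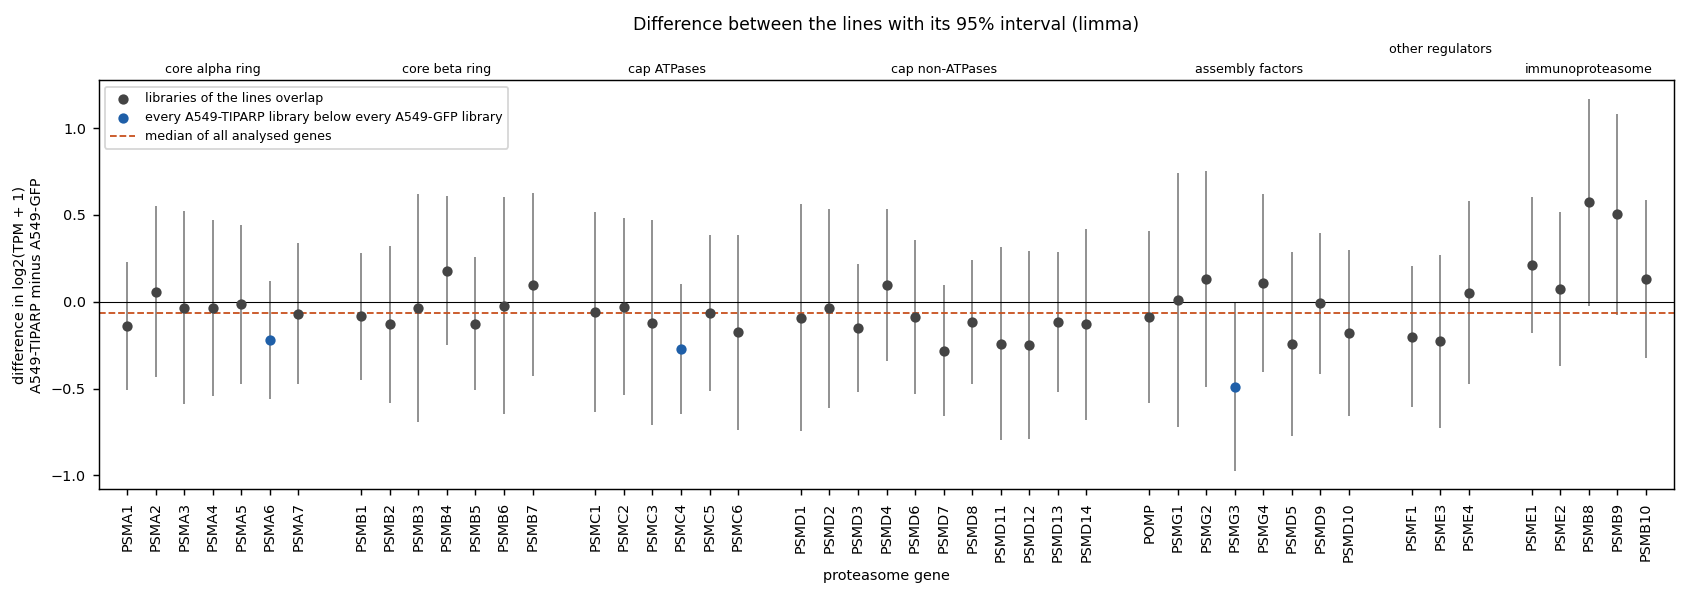
Difference of the line means (A549-TIPARP minus A549-GFP, log2(TPM + 1) scale) for the 47 analysed genes, with the 95% interval from limma as a bar, grouped by role; the dashed line is the median of all 13181 analysed genes, and blue points are the 3 genes whose A549-TIPARP libraries all lay below the A549-GFP libraries. All bars but that of PSMG3 cross 0, and the 5 immunoproteasome points at the right lie above 0.

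In the alpha ring, which gates the core, 6 of 7 analysed genes lay lower on average in A549-TIPARP, with a median of -0.04, and without A549-TIPARP replicate 3 there were 2 of 7, with a median of 0.08. The subunit PSMA6 (chromosome 14, 35278558 to 35317493, plus strand) was at 322.7, 329.5 and 327.7 TPM in A549-GFP libraries 1, 2 and 3 and at 296.3, 298.7 and 250.2 TPM in A549-TIPARP libraries 1, 2 and 3. The lines did not overlap, and the A549-GFP libraries lay close together. The difference was -0.22 (SE 0.15, limma adjusted p = 0.994), and -0.13 without A549-TIPARP replicate 3. In the ring, 1 of the 7 alpha genes stood in this position, where 3.54% of all genes did. PSMA7, the alpha gene of the highest level, was at 552, 497 and 606 TPM and at 580, 583 and 426 TPM, with overlap. PSMA5, the lowest, was at 60.3, 46.7 and 68.0 TPM and at 56.6, 64.5 and 51.0 TPM, and its means differed by -0.01. The other members, PSMA1, PSMA2, PSMA3 and PSMA4, overlapped between the lines with differences from -0.14 (PSMA1) to 0.06 (PSMA2).

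In the beta ring 5 of 7 genes had a lower mean, with a median of -0.04 that was 0.19 without A549-TIPARP replicate 3, where 2 of 7 were lower, and none of the 7 separated the lines. The 3 protease subunits of the constitutive core were not alike in their spread. PSMB5, the chymotrypsin-like subunit, was at 321, 291 and 351 TPM in A549-GFP and at 298, 335 and 252 TPM in A549-TIPARP, a difference of -0.13, which was -0.019 without A549-TIPARP replicate 3. PSMB6, the caspase-like subunit, was at 413, 283 and 533 TPM and at 439, 472 and 287 TPM, a difference of -0.02. PSMB7, the trypsin-like subunit, was at 219, 137 and 241 TPM and at 222, 219 and 182 TPM, a difference of 0.10. Each line held 1 low library for PSMB6 and PSMB7, replicate 2 of A549-GFP and replicate 3 of A549-TIPARP. PSMB4, a non-catalytic subunit, had the highest geometric mean of the ring and was at 425, 320 and 483 TPM in A549-GFP and at 490, 468 and 416 TPM in A549-TIPARP. Its difference of 0.18 (95% interval -0.25 to 0.61) was the largest upward one among the constitutive genes with all 6 libraries, the libraries overlapped, and it was 0.013 without A549-GFP replicate 2, its lowest library. PSMB2, the lowest of the ring, was at 73.7, 56.1 and 65.4 TPM and at 66.3, 64.5 and 48.1 TPM. PSMB1 and PSMB3 differed by -0.08 and -0.04.

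All 6 ATPase genes of the cap lay lower on average in A549-TIPARP, with a median of -0.09, and 5 of them overlapped between the lines. Without A549-TIPARP replicate 3 the count was 1 of 6, with a median of 0.09, and without A549-GFP replicate 1 it was 3 of 6. The exception to the overlap was PSMC4 (chromosome 19, 39971165 to 39981764, plus strand), which had the highest geometric mean of the ring. It was at 267.9, 267.4 and 275.2 TPM in A549-GFP and at 229.0, 257.3 and 189.3 TPM in A549-TIPARP. The A549-GFP libraries were nearly level, and every A549-TIPARP library lay below them. The difference was -0.27 (SE 0.16, limma adjusted p = 0.994), and -0.15 without A549-TIPARP replicate 3. PSMC2, the lowest ATPase gene, was at 81.9, 55.9 and 65.4 TPM and at 72.1, 76.7 and 51.1 TPM. PSMC1, PSMC3, PSMC5 and PSMC6 differed by -0.06, -0.12, -0.06 and -0.18, with SEs between 0.20 and 0.26.

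Of the 11 non-ATPase genes of the cap 10 had a lower mean, with a median of -0.12, and all 11 overlapped between the lines. Without A549-TIPARP replicate 3, 5 of 11 were lower, with a median of 0.018, and without A549-GFP replicate 1, 6 of 11. PSMD7, a scaffold subunit that pairs with the deubiquitinase PSMD14, was at 240, 271 and 215 TPM in A549-GFP and at 202, 217 and 177 TPM in A549-TIPARP. Only the second A549-TIPARP value reached into the range of A549-GFP, and the difference was -0.28 (95% interval -0.66 to 0.10). PSMD14 itself was at 202, 134 and 161 TPM and at 158, 189 and 110 TPM, a difference of -0.13. PSMD4, a ubiquitin receptor of the cap, was the exception in direction, at 266, 206 and 288 TPM and at 272, 310 and 229 TPM, a difference of 0.10, which was -0.04 without A549-GFP replicate 2. PSMD8 was the highest of the group, at 340, 393 and 330 TPM and at 345, 341 and 294 TPM, and PSMD12 the lowest, at 51.0, 38.5 and 32.8 TPM and at 34.7, 40.9 and 26.6 TPM. The remaining genes, PSMD1, PSMD2, PSMD3, PSMD6, PSMD11 and PSMD13, differed by between -0.24 (PSMD11) and -0.04 (PSMD2).

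The assembly factors held the gene with the largest downward difference of the 47. PSMG1, PSMG2, PSMG3 and PSMG4 are chaperones of the alpha ring, POMP brings the beta ring together, and PSMD5, PSMD9 and PSMD10 are chaperones of the base of the cap. PSMG3 (chromosome 7, 1567332 to 1570032, minus strand) was at 95.05, 114.6 and 110.6 TPM in A549-GFP and at 85.6, 88.5 and 56.6 TPM in A549-TIPARP. The lines did not overlap, and A549-TIPARP replicate 3 was the lowest. The geometric means were 106 and 75.5 TPM, a ratio of 0.709, and the difference was -0.49 (SE 0.21, 95% interval -0.97 to -0.01, limma adjusted p = 0.994). Without A549-TIPARP replicate 3 the difference was -0.29 and the unadjusted p was above 0.05, as it was with 4 of the other 5 libraries left out. An antisense gene, PSMG3-AS1, starts 41 bases from PSMG3 and reached 9.83 TPM in A549-GFP replicate 2, and whether counting used the strand was not stated.

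The partner of PSMG3 in the same chaperone pair, PSMG4, had a difference of the opposite sign with all 6 libraries. It was at 22.9, 17.4 and 28.8 TPM in A549-GFP and at 26.1, 24.9 and 22.2 TPM in A549-TIPARP, a difference of 0.11, which was -0.07 without A549-GFP replicate 2. PSMG1 and PSMG2, which form the other pair, both had their lowest value in A549-GFP replicate 2, at 36.9 and 40.6 TPM, and differed by 0.01 and 0.13 with the widest intervals of the group, and by -0.31 and -0.18 without that library. POMP, the assembly factor of the highest level, was at 142, 104 and 158 TPM and at 130, 146 and 102 TPM. PSMD5, PSMD9 and PSMD10 differed by -0.24, -0.01 and -0.18, and all 3 were highest in A549-GFP replicate 2, unlike most members.

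Of the other regulators, PSME3, which forms a nuclear activator, was at 117, 86.2 and 83.4 TPM in A549-GFP and at 88.3, 93.1 and 63.3 TPM in A549-TIPARP, a difference of -0.23, which was -0.058 without A549-TIPARP replicate 3 and -0.074 without A549-GFP replicate 1. PSME4, a large activator linked to histone degradation, was at 39.1, 24.9 and 26.7 TPM and at 33.3, 33.99 and 25.7 TPM, a difference of 0.05. PSMF1, an inhibitor of the core in vitro, was at 50.5, 57.0 and 43.4 TPM and at 44.5, 41.3 and 44.4 TPM, a difference of -0.20. The lines overlapped for all 3.

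The immunoproteasome genes fell into low and high ones. PSMB8 (chromosome 6, 32840717 to 32844679, minus strand), the inducible counterpart of PSMB5, was at 5.25, 9.78 and 5.55 TPM in A549-GFP and at 10.3, 9.62 and 11.1 TPM in A549-TIPARP. The A549-TIPARP libraries lay close together, and the lines overlapped through A549-GFP replicate 2 alone, which was above A549-TIPARP replicate 2. The difference was 0.57 (SE 0.26, 95% interval -0.02 to 1.17, limma adjusted p = 0.994), the largest upward one of the 47. Without A549-GFP replicate 2 it was 0.82 (limma adjusted p = 0.225), without A549-GFP replicate 1 it was 0.43, and over all 15 alternatives the adjusted p stayed between 0.225 and 1.

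PSMB9 (chromosome 6, 32854192 to 32859851, plus strand), the counterpart of PSMB6, was at 2.52, 3.20 and 3.86 TPM in A549-GFP and at 5.90, 5.59 and 3.51 TPM in A549-TIPARP. Here A549-TIPARP replicate 3 lay within the range of A549-GFP, and all values were near the floor of 1 TPM, where the log2(TPM + 1) scale understates a fold. The difference was 0.50 (95% interval -0.07 to 1.08, limma adjusted p = 0.994), and ran from 0.39 without A549-GFP replicate 1 to 0.70 without A549-TIPARP replicate 3. Between PSMB8 and PSMB9 lies TAP1, a subunit of the peptide transporter. It was at 13.5, 25.0 and 14.1 TPM and at 14.4, 18.2 and 14.5 TPM, with a difference of -0.10, which was 0.17 without A549-GFP replicate 2.

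PSMB10, the counterpart of PSMB7, was at 30.3, 35.6 and 42.2 TPM in A549-GFP and at 43.96, 39.7 and 34.5 TPM in A549-TIPARP, a difference of 0.13 with overlap. PSME1, which forms the interferon-inducible activator ring with PSME2, was at 110.4, 144.0 and 109.4 TPM and at 146.9, 133.3 and 139.1 TPM. Its A549-GFP replicate 2 was again the value that reached the A549-TIPARP range, and the difference of 0.21 was 0.34 without it (limma adjusted p = 0.368) and 0.15 without A549-GFP replicate 3. PSME2 was at 174.6, 166.9 and 221.6 TPM and at 208.3, 225.3 and 160.7 TPM, and its difference of 0.07 was within the spread of both lines.

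The share of inducible over constitutive catalytic subunits was computed within each library, which removes a scaling factor that both genes share. PSMB8 was 1.64%, 3.36% and 1.58% of PSMB5 in A549-GFP and 3.46%, 2.87% and 4.40% in A549-TIPARP. The lines overlapped, again through A549-GFP replicate 2, and the log2 ratio differed by 0.78 (SD 0.61 in A549-GFP and 0.31 in A549-TIPARP, n = 3 each). PSMB9 was 0.610%, 1.13% and 0.723% of PSMB6 in A549-GFP and 1.34%, 1.18% and 1.22% in A549-TIPARP. All A549-TIPARP values were above all A549-GFP values for this pair, with A549-GFP replicate 2 just below them, and the log2 ratio differed by 0.66, a 1.57-fold ratio. In A549-TIPARP replicate 3 PSMB9 itself, at 3.51 TPM, lay within the A549-GFP range, and PSMB6 was low at 287 TPM, like most constitutive genes in that library. PSMB10 was 13.8%, 26.1% and 17.5% of PSMB7 in A549-GFP and 19.8%, 18.1% and 18.9% in A549-TIPARP. Its A549-GFP values lay on both sides of the A549-TIPARP values, with a difference of 0.04 in the log2 ratio. With 1 library left out at a time, the difference in the log2 ratio ran from 0.59 to 1.13 for PSMB8 over PSMB5, from 0.47 to 0.91 for PSMB9 over PSMB6 and from -0.17 to 0.28 for PSMB10 over PSMB7, each highest without A549-GFP replicate 2. In both lines the transcripts of the inducible subunits were below those of their constitutive counterparts for all 3 pairs, and PSMB10 had the highest share. Protein in the core particle was not measured.

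**Figure D3:**
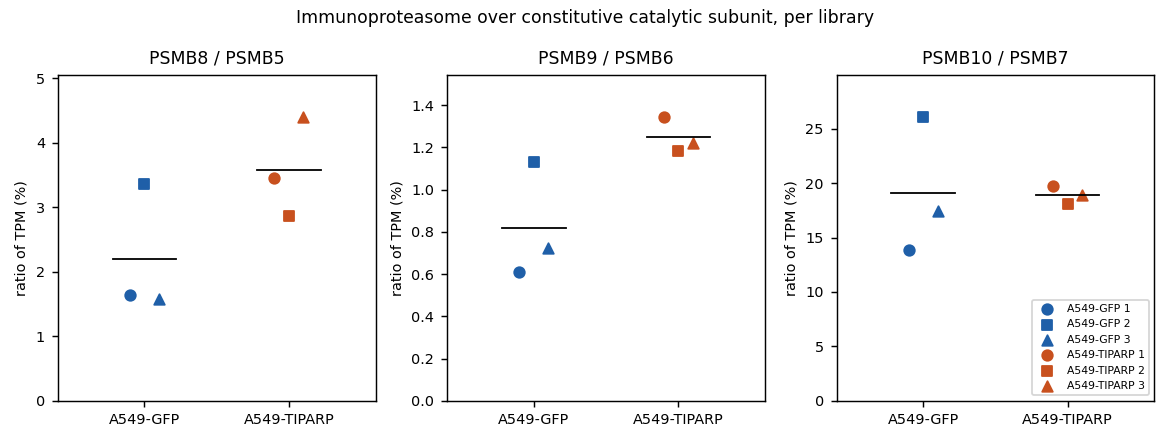
TPM of each inducible catalytic subunit as a percentage of its constitutive counterpart (linear axes from 0, scaled separately for the 3 pairs) in the 3 libraries of each line; horizontal bars are means of the 3. A549-TIPARP is above every A549-GFP library for PSMB9 over PSMB6, overlaps through A549-GFP replicate 2 for PSMB8 over PSMB5, and lies inside the A549-GFP range for PSMB10 over PSMB7.

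Constitutive genes varied together across libraries within a line. A549-TIPARP replicate 3 was the lowest A549-TIPARP library for 41 of 42 constitutive genes, with a median deviation of -0.28 from the mean of the line, while over all genes its median deviation was -0.03 and it was the lowest for 46.9% of them. A549-GFP replicate 2 was the lowest A549-GFP library for 31 of 42, with a median deviation of -0.27, whereas over all genes its median deviation was 0.23 and it was the lowest for 21.5%. The constitutive genes thus stood low in 1 library of each line, and in A549-GFP replicate 2 they did so against the direction of the median gene. A549-TIPARP replicate 3 also had the highest share of small RNA entries, 10.7% of TPM, and A549-GFP replicate 2 the lowest, 6.60%. The immunoproteasome genes had their lowest A549-GFP value in replicate 2 for 1 of 5 and their lowest A549-TIPARP value in replicate 3 for 3 of 5. What lies behind the low values was not tested.

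**Figure D4:**
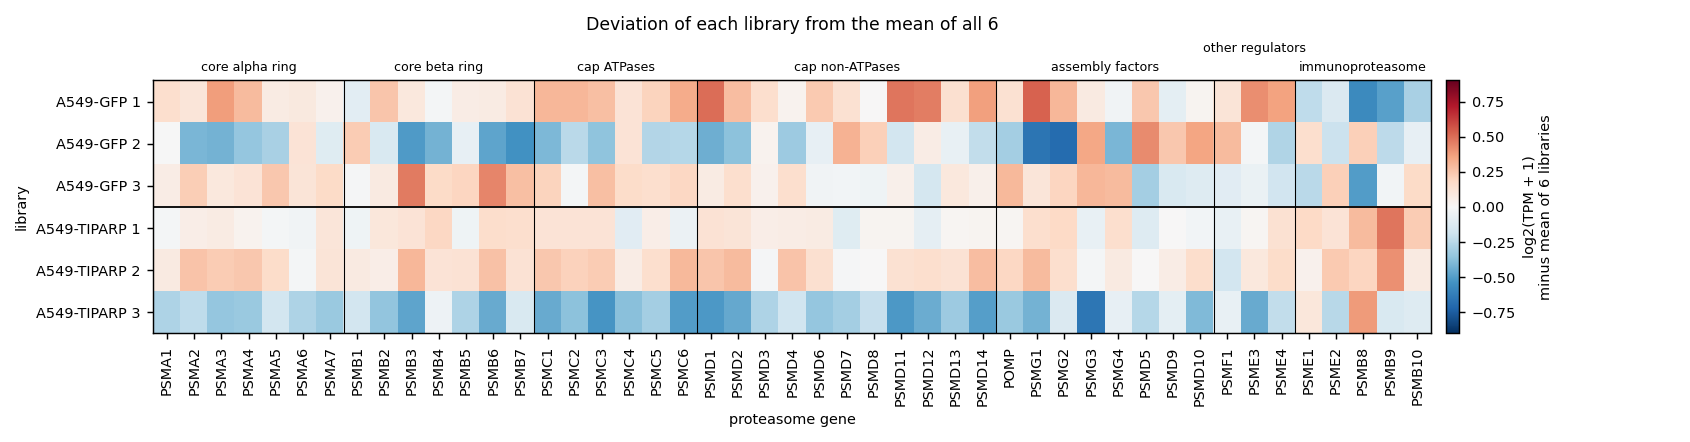
Deviation of each library (rows) from the mean of all 6 on the log2(TPM + 1) scale for the 47 analysed genes (columns, grouped by role), with red above and blue below the mean. The rows of A549-GFP replicate 2 and A549-TIPARP replicate 3 are blue over most constitutive genes, and A549-GFP replicate 2 is red for PSMG3, PSMD5, PSMD7 and PSMD10.

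Genes that work with the proteasome were described from 4 lists of 48 genes, of which 46 were analysed. None had an adjusted p under 0.05 by limma, and at an unadjusted p under 0.05 there was 1 higher gene, TAPBP, and 1 lower gene, MAFK, where 2.97% and 0.88% of all genes were in these positions. Of the 14 analysed entries for proteins bound to the proteasome, 10 had a lower mean, with a median of -0.18, where 60.4% of all genes were lower and their median was -0.06. Without A549-TIPARP replicate 3 the median of the list was -0.04 and that of all genes -0.04, and without A549-GFP replicate 1 they were -0.05 and -0.06. The ubiquitin receptor ADRM1 was at 236, 231 and 240 TPM in A549-GFP and at 224, 220 and 164 TPM in A549-TIPARP, without overlap, and the difference was -0.23 (limma adjusted p = 0.994), and -0.09 without A549-TIPARP replicate 3. Over all genes, 3.54% had every A549-TIPARP library below every A549-GFP library and 5.36% had every one above. These shares stand beside each partner gene given as without overlap. SEM1, a small cap subunit outside the symbol rule, had the highest difference of this list, 0.09, which was -0.03 without A549-GFP replicate 2.

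Of 10 genes of the transcriptional control of the proteasome 8 had a lower mean, with a median of -0.24, where 60.4% of all genes had a lower mean. Without A549-GFP replicate 2, 5 of the 10 were lower, with a median of 0.0055, and 42.6% of all genes were lower. NFE2L1, the factor named above, was at 71.5, 132 and 57.8 TPM in A549-GFP and at 69.4, 71.2 and 62.1 TPM in A549-TIPARP, a difference of -0.27 with overlap, and 0.07 without A549-GFP replicate 2. MAFK, a small MAF partner of NFE2L1 and NFE2L2, was at 137, 186 and 176 TPM and at 98.5, 124 and 100 TPM, without overlap, and the difference was -0.63 (SE 0.19, limma adjusted p = 0.856). MAFF had the largest difference of the list, -0.72, which rested on 29.4 TPM in A549-GFP replicate 2, as the other 5 libraries were between 4.50 and 5.90 TPM. STAT3 had the highest, 0.06.

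The 7 genes of ubiquitin supply had a median of 0.02, between -0.03 and 0.06 with 1 library left out, and the highest difference among them was 0.09, for RPS27A, a fusion of ubiquitin and a ribosomal protein. In the list of antigen processing and interferon signalling 8 of 15 analysed genes had a higher mean, with a median of 0.01. The direction depended on which A549-GFP library was left out. Without A549-GFP replicate 2 there were 13 of 15, with a median of 0.31, where 57.4% of all genes had a higher mean. Without A549-GFP replicate 1 there were 4 of 15, with a median of -0.12, where all genes had -0.06. Without A549-GFP replicate 3 there were 3 of 15, with a median of -0.17, where all genes had -0.16. TAPBP, which tethers class I molecules to the peptide transporter, was at 34.1, 32.4 and 40.7 TPM in A549-GFP and at 51.2, 50.1 and 57.5 TPM in A549-TIPARP, without overlap, and the difference was 0.56 (SE 0.18, limma adjusted p = 0.966). IFNGR1, a chain of the interferon-gamma receptor, had the lowest difference, -0.66, with 122 TPM in A549-GFP replicate 2 and -0.28 without that library. The other chain, IFNGR2, was at 27.9, 30.7 and 27.2 TPM and at 34.5, 34.03 and 33.7 TPM, without overlap (0.25, adjusted p = 0.994). IRF1, which carries the interferon-gamma signal to inducible promoters, was at 3.89, 10.7 and 3.32 TPM and at 5.61, 5.25 and 5.81 TPM. The lines overlapped through A549-GFP replicate 2 alone, and the difference of 0.06 was 0.51 without it and -0.20 without A549-GFP replicate 3. ERAP2 was at the floor in every library, and NLRC5 did not exceed 2 TPM.

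**Figure D5:**
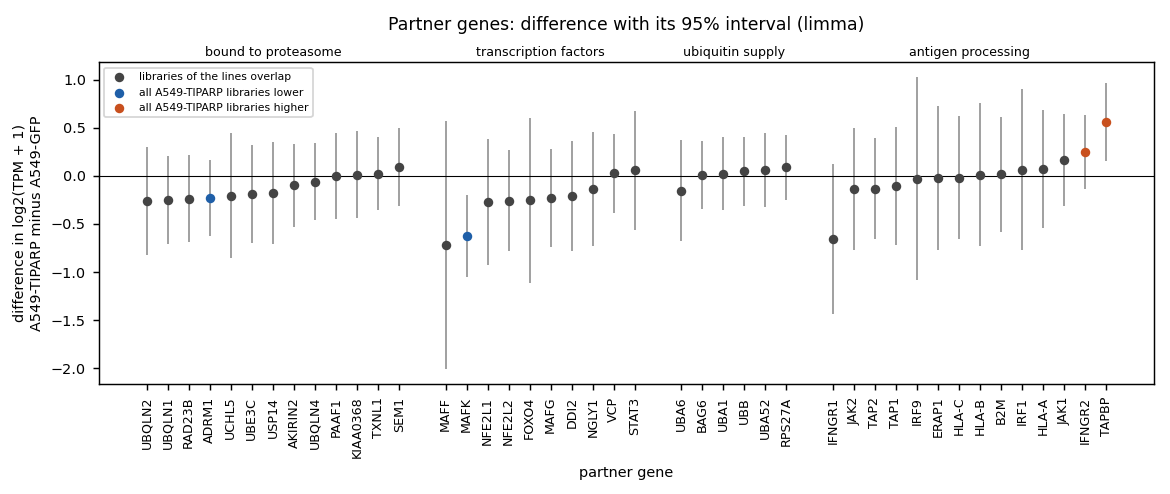
Difference of the line means (A549-TIPARP minus A549-GFP, log2(TPM + 1) scale) with its 95% interval for 43 of the 46 analysed partner genes in 4 lists, sorted within a list; blue and orange points are genes whose A549-TIPARP libraries all lay below or above the A549-GFP libraries. TAPBP and MAFK are the 2 genes whose bars do not reach 0, and the widest bar is that of MAFF.

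Many proteasome genes have processed pseudogenes, with which reads can be shared. All 43 pseudogene entries named for these genes were at the floor in every library, and how reads that match several genes were counted was not stated. Of 5 antisense entries 4 were analysed, and the highest, PSMA3-AS1, was at 20.0 to 51.0 TPM against 174 to 304 TPM for PSMA3, so part of the reads of PSMA3 could not be assigned with certainty.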

How the data were processed

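RNA was measured in 6 libraries, 3 of A549-GFP and 3 of A549-TIPARP cells. The authors used Strand NGS to align paired-end reads of a stranded mRNA kit to transcripts of hg38 and deposited, per library, the log2 of the TPM of 53826 entries, with TPM below 1 set to 1. The software version, the annotation release, the use of strand and the counting of multi-mapped reads are not given in the sources used here. Depth is unknown, so no counting error was computed.

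Deposited log2 values were turned back to TPM. Genes with TPM above 2 in at least 1 library were kept (13181), as in the study, and limma 3.58.1 (R 4.3.3) was fitted to log2(TPM + 1), with a trended variance, all 6 libraries, line as the only term and Benjamini-Hochberg adjustment. Folds are ratios of geometric mean TPM. The script was tested on simulated data. Lines and replicate numbers came from the sample titles. Coordinates and promoters are those of RefSeq (GRCh38.p14), with exons of GENCODE, and tables were handled in Python 3.11.15 with pandas 2.3.3.

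The members and gene lists were chosen with earlier results of these data known. Values per library are given for immunoproteasome and constitutive catalytic genes, the 3 largest differences in each direction, genes whose libraries do not overlap, and the highest and lowest gene of each role; genes outside this rule were named after their values were seen. Partner genes are those with the largest difference in each direction in a list, and some partner genes are not reported here. Alternatives were a pseudocount of 0.1 or none, the filter passed in at least 3 libraries, no filter, median-ratio rescaling, small RNA entries removed, no variance trend, a replicate block and each library left out. The planned comparison of catalytic subunit proteins was not run, since protein sequences were not used here.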

Additional observations from a re-analysis of the deposited data

How the results depend on the processing

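No proteasome gene and no partner gene passed an adjusted p of 0.05 by limma under any of the 15 alternatives. The number of all genes past the test was 2, it was 1 with no filter and 1 with the replicate block, and it ran from 1 to 3 over the 6 fits that each leave out 1 library. The titles number the libraries Exp1 to Exp3 in both lines, and what the number marks is not stated. Same-numbered libraries deviated with correlations of 0.45, -0.52 and -0.38 across genes and so did not deviate together throughout, and the block moved the members at an unadjusted p under 0.05 from 1 to 0 and changed no other call of a member. That count was 2 without A549-GFP replicate 2 (PSMB8 and PSME1) and 3 with both low libraries left out (PSMB8, PSMB9 and PSME1), the setting added after the data were seen, while the share of all genes at that level went from 3.85% to 10.5% and 9.31%. The count of members was 0 without A549-GFP replicate 1 and 0 without A549-TIPARP replicate 1. It was 1 without A549-GFP replicate 3 (PSMD5), without A549-TIPARP replicate 2 (PSMG3) and without A549-TIPARP replicate 3 (PSMB9). Median-ratio rescaling and limma without a trend each left 1, PSMB8 in place of PSMG3. Partner genes at an unadjusted p under 0.05 were 2, and 7 without A549-GFP replicate 2, where the share of all genes also stood at 10.5%. Of 705 comparisons of the 47 analysed members with an alternative, 627 kept direction, and 17 genes did so throughout. For the 23 members whose values are given by the rule for named genes, 316 of 345 kept it, and those that did not are listed here. Reversed under rescaling were PSMA5 (0.042), PSMB6 (0.035) and PSMC2 (0.028), and with both low libraries left out PSMA7 (0.0068), PSMB7 (-0.059), PSMC2 (0.022), PSMD8 (0.035) and PSMG4 (-0.0090). With 1 library left out, differences that reversed ran from -0.26 to 0.059 for POMP, -0.16 to 0.10 for PSMA5, -0.15 to 0.080 for PSMA7, -0.23 to 0.015 for PSMB2, -0.27 to 0.20 for PSMB6, -0.15 to 0.26 for PSMB7, -0.16 to 0.15 for PSMC2, -0.025 to 0.22 for PSME2, -0.070 to 0.25 for PSME4 and -0.072 to 0.27 for PSMG4. The cause was not tested. With 3 libraries per line and no read counts, differences of the size seen for most of these genes were within the intervals.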

Other observations

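The neighbours of PSMG3 were looked at after its values were seen. MAFK, whose product is a transcription factor partner of NFE2L1 and which ends 24289 bases from PSMG3 on chromosome 7, and TMEM184A, 11127 bases away, also had all 3 A549-TIPARP libraries below all 3 A549-GFP libraries. TMEM184A was at 32.4, 42.2 and 31.3 TPM in A549-GFP and at 25.5, 23.4 and 26.6 TPM in A549-TIPARP, a difference of -0.46 (limma adjusted p = 0.994). They were 2 of the 9 other analysed genes within 500 kb of PSMG3, where 3.54% of all genes stood in this position, and 5 of the 9 had a lower mean, against 60.4% of all genes, with a median difference of -0.25. INTS1, on the far side of MAFK, was at 49.6, 47.4 and 57.5 TPM and at 45.2, 48.6 and 36.6 TPM, with overlap.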
